A study of Homo sapiens with 4 samples.

Results

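The genes described here are IL13RA2 and the IL-4/IL-13 receptor axis: the cytokines IL4 and IL13, the receptor chains IL4R, IL2RG, IL13RA1 and IL13RA2, and the transcription factor STAT6. Members were taken by gene identity, as every transcript of the count table whose identifier belongs to 1 of these 7 genes in the RefSeq or Ensembl annotation. They hold 16 of the 65423 transcripts, and the table covers 34520 named genes. The set was selected on the ratio of IL13RA2 between the lines, which stood out in an earlier look at these data, and the other 6 genes were added for their place in the pathway. Each gene is given by its transcript of highest mean count. RNA was sequenced from MDA-MB-231-LM2 (LM2), a subline of MDA-MB-231 labelled as strongly metastatic to the lung, and from the parental line MDA-MB-231, a human triple-negative breast cancer line. LM2 was grown in DMEM and MDA-MB-231 in Leibovitz L-15 medium, each with 10% FBS, and MDA-MB-231 was kept in air without added CO2, so that the cell line and its culture conditions cannot be told apart. Both are established lines, and the labels name no genetic change and no cytokine treatment in either. The labels list 4 samples, 2 per cell line.

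Each line has a single column in the tables, and the sources do not say if it holds 1 library or a sum of both samples. Every difference below is therefore without a replicate check, and no p-value was computed. The intervals are 95% intervals that cover counting error only. The columns sum to 128985870 counts in LM2 and 130689252 counts in MDA-MB-231. The IL13RA2 difference chose the set and is therefore a description, not a test.

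IL-4 and IL-13 are related cytokines made mainly by T helper cells and innate lymphoid cells, and they drive type 2 immunity in airway, gut and skin. IL-4 binds IL4R, which then recruits either IL2RG (the common gamma chain, mainly on blood cells) or IL13RA1. IL-13 binds IL13RA1 first and then IL4R. Janus kinases on the chain tails phosphorylate STAT6, which enters the nucleus and switches on target genes. IL13RA2 binds IL-13 tightly but has a short tail without a kinase docking site, so it was first described as a decoy, and it is known as an antigen of glioma and of some other tumours.

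The tail is where the IL-13 chains differ, so the ends of the IL13RA2 and IL13RA1 coding sequences are shown, from the most hydrophobic stretch of 19 codons to the stop codon. Capitals mark that stretch, which was found by a hydropathy scan after codon 40, and the lower case letters are the codons after it. The IL13RA2 bases lie in the last exons of the gene at chrX:115004080-115005280 on the minus strand, and those of IL13RA1 at chrX:118773914-118791854 on the plus strand (both GRCh38, GENCODE release 29, introns removed).
IL13RA2: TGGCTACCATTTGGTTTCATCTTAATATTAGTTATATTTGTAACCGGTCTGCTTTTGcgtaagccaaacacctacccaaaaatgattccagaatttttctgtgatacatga
IL13RA1: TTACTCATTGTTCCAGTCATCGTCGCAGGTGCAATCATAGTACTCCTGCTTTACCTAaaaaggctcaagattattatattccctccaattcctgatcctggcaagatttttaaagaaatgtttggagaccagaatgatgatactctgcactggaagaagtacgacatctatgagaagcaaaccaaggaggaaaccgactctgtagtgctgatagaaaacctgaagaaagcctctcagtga
Of its 380 codons, IL13RA2 has 17 after the stretch and before the stop codon. IL13RA1 has 60 of 427, IL2RG has 88 of 369, and IL4R, the chain that carries the STAT6 docking sites, has 574 of 825. IL13RA2 is thus the chain with the shortest tail of the 4 by this measure.

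The genes fell into a set with clear expression and a set at the limit of detection. IL13RA2, IL13RA1, IL4R and STAT6 reached a mean of 50 counts over the columns, and IL4, IL13 and IL2RG did not. Across the table, 15427 genes reached that mean. In LM2, 704 of these (4.56%) had a ratio more than 2-fold above MDA-MB-231, and 1058 (6.86%) a ratio more than 2-fold below it. Of the 4 expressed members, IL13RA2 was over 2-fold higher, and IL13RA1, IL4R and STAT6 were within 2-fold.

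**Figure D1:**
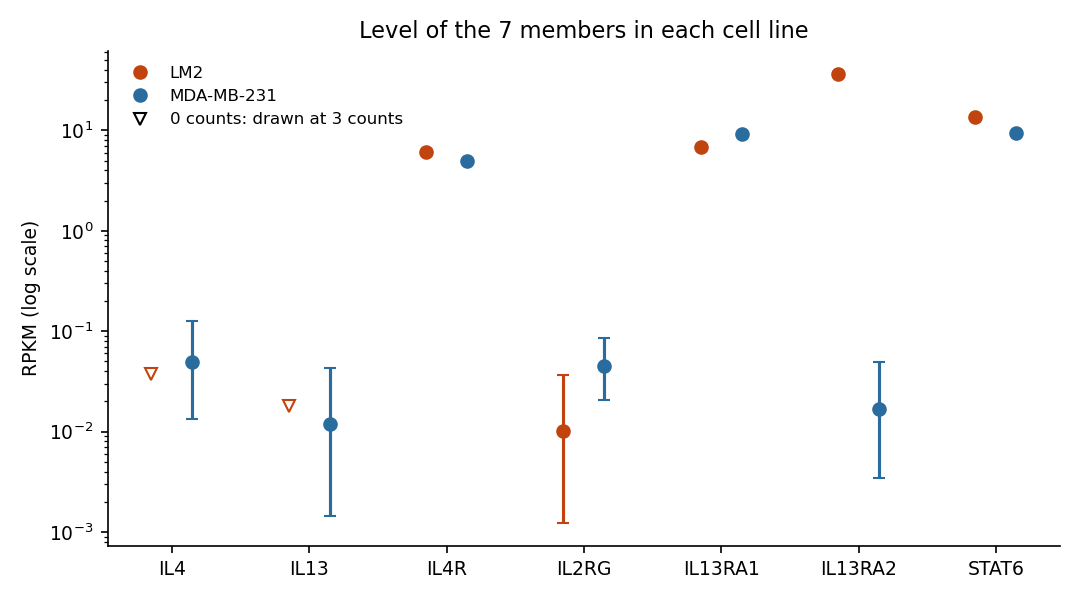
Level of each of the 7 genes in LM2 and in MDA-MB-231, as RPKM on a log axis. Bars are exact 95% Poisson intervals, hidden by the points where narrow, and open triangles stand for 0 counts and are drawn at the level of 3 counts. IL13RA2 is at 36.1 RPKM in LM2 and 0.0167 RPKM in MDA-MB-231, while IL4R, IL13RA1 and STAT6 lie near each other in both lines.

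Transcripts of both cytokines were at the limit of detection. IL4, on chromosome 5, had 0 counts in LM2 and 4 counts in MDA-MB-231 (transcript NM_000589), and its other transcript had 0 counts in LM2 and 3 counts in MDA-MB-231. IL13, its neighbour on chromosome 5, had 0 counts in LM2 and 2 counts in MDA-MB-231 (NM_002188). The interval of a count of 0 in LM2 ends at 3.69 counts, which is a level of 0.0463 RPKM for IL4 and 0.0223 RPKM for IL13. RPKM is the count per kilobase of transcript, scaled to the column total. The interval of the ratio of LM2 to MDA-MB-231 ended at 1.53 for IL4 and at 5.39 for IL13, so no difference between the lines was detectable at this depth.

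Genes on both sides of IL4 and IL13 were expressed in both lines. TH2LCRR, a non-coding gene beside IL13, had 62 counts in LM2 and 61 in MDA-MB-231. RAD50, a DNA repair gene next to it, had 1455 in LM2 and 1555 in MDA-MB-231, and KIF3A, a kinesin gene directly after IL4, had 919 in LM2 and 1167 in MDA-MB-231. Of the 20 nearest genes that reached a mean of 50 counts, 0 were over 2-fold higher in LM2 and 2 were over 2-fold lower. Over all genes, 4.56% were higher and 6.86% lower. The median log2 ratio of the 20 was -0.13. Genes under that mean were left out of the 20, so these are expressed by selection. The protein-coding genes directly before IL13 and directly after IL4, RAD50 and KIF3A, were taken without that filter and had counts in both lines.

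IL13RA2 was the member with the extreme difference. Its transcript (NM_000640) had 6402 counts in LM2 and 3 counts in MDA-MB-231. Per length, this was 36.1 RPKM in LM2 (interval 35.3 to 37.0) and 0.0167 RPKM in MDA-MB-231 (interval 0.00345 to 0.0489). The LM2 level was above that of 97.5% of all named genes in LM2, and the MDA-MB-231 level was above that of 35.9% of genes in MDA-MB-231. The ratio of LM2 to MDA-MB-231 was 2162, with an interval of 739.5 to 10487. The upper end is wide because 3 counts set it. On the log2 scale the ratio was 11.08 (interval 9.53 to 13.36). With 0.5 counts added to each column it was 10.86 and ranked 2 of 15427 genes.

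**Figure D2:**
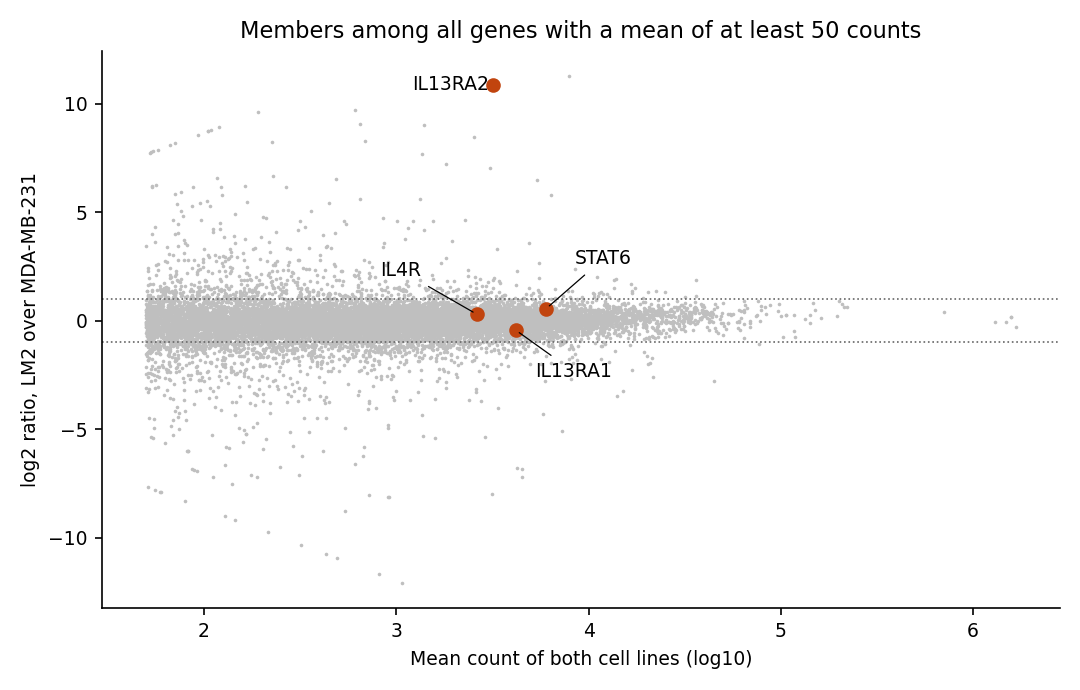
Log2 ratio of LM2 over MDA-MB-231, with 0.5 counts added, against the log10 of the mean count of both lines, for the 15427 genes that reach a mean of 50 counts. Grey points are genes, dotted lines mark 2-fold, and IL13RA2 sits at 10.86, while IL4R, IL13RA1 and STAT6 lie between the lines.

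IL13RA1, the chain that shares IL-13 with IL13RA2, was lower in LM2. It had 3532 counts in LM2 and 4850 in MDA-MB-231 (NM_001560, chromosome X), which was 6.84 RPKM in LM2 (6.61 to 7.06) and 9.26 RPKM in MDA-MB-231 (9.005 to 9.53). The level in LM2 was 1.36-fold lower (1.30 to 1.42), a log2 ratio of -0.44. Of the 15427 genes, 79.0% had a higher log2 ratio.

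IL4R, the chain common to both receptor types, was slightly higher in LM2. It had 2878 counts in LM2 and 2367 in MDA-MB-231 (NM_000418, chromosome 16), or 6.05 RPKM in LM2 (5.83 to 6.27) and 4.91 RPKM in MDA-MB-231 (4.71 to 5.11). The ratio was 1.23 (1.17 to 1.30). The 4 transcripts of IL4R overlap and had ratios of 1.22 to 1.23, so they give no separate view of the gene. Exons of AC106739.1 on the other strand cover 108 bases (2.93%) of the IL4R transcript, and whether the counting used strand is not stated in the sources.

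IL2RG, the common gamma chain, was at the limit of detection in both lines. It had 2 counts in LM2 and 9 in MDA-MB-231 (NM_000206, chromosome X), or 0.0101 RPKM in LM2 (0.00122 to 0.0365) and 0.0449 RPKM in MDA-MB-231 (0.0205 to 0.0852). The interval of the ratio, 0.0237 to 1.09, includes 1. AL590764.2, on the same strand, covers 1029 bases (67.1%) of the IL2RG transcript, so the counts cannot be assigned to IL2RG alone. MED12, a Mediator subunit gene directly after IL2RG, had 1579 counts in LM2 and 2047 in MDA-MB-231. On the other side, CXorf65 had 0 counts in both lines.

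STAT6 was higher in LM2. It had 7136 counts in LM2 and 4914 in MDA-MB-231 (NM_001178078, chromosome 12), or 13.7 RPKM in LM2 (13.4 to 14.0) and 9.31 RPKM in MDA-MB-231 (9.06 to 9.58). The ratio was 1.47 (1.42 to 1.53), a log2 ratio of 0.56, and 11.4% of genes had a higher one. The 6 transcripts had 6763 to 7136 counts in LM2 and 4684 to 4914 in MDA-MB-231, with ratios of 1.46 to 1.47. Exons of NAB2 on the other strand cover 69 bases (1.71%) of the STAT6 transcript.

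The order of the receptor levels differed between the lines. Per length, the IL13RA2 level in LM2 was 5.29 times that of IL13RA1 (5.07 to 5.51), 5.98 times that of IL4R (5.72 to 6.25) and 2.64 times that of STAT6 (2.55 to 2.73). In MDA-MB-231, IL13RA1 stood 554 times above IL13RA2, with an interval of 189 to 2688. The order was IL13RA2, STAT6, IL13RA1 and IL4R in LM2, and STAT6 and IL13RA1, then IL4R and last IL13RA2 in MDA-MB-231.

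The chains of the signalling receptor for IL-13 were closer to each other in LM2. IL13RA1 was 1.13 times the IL4R level in LM2 (1.08 to 1.19) and 1.89 times in MDA-MB-231 (1.796 to 1.98). STAT6 was 2.005 times the IL13RA1 level in LM2 (1.93 to 2.09) and 1.01 times in MDA-MB-231 (0.966 to 1.05), where the levels were not separated by counting error. IL13RA1, IL4R and STAT6 were each above the level of 83.4% or more of all genes in each line.

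The main Janus kinases of the detected chains, JAK1 and TYK2, differed between the lines by less than counting error. JAK1, which binds IL4R, had 7281 counts in LM2 and 7573 in MDA-MB-231, a ratio of 0.974 (0.943 to 1.006). TYK2, which binds IL13RA1, had 5288 in LM2 and 5387 in MDA-MB-231, a ratio of 0.995 (0.957 to 1.03), and JAK2 had 360 in LM2 and 470 in MDA-MB-231, a ratio of 0.776 (0.675 to 0.892). JAK3, the partner of the common gamma chain, had 14 counts in LM2 and 88 in MDA-MB-231, a ratio of 0.161 (0.0847 to 0.285). JAK3 was thus low in both lines, like IL2RG.

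Of the 14 kinases and adaptors listed around the receptors, 11 had a mean of at least 50 counts, 0 were over 2-fold higher and 1, JAK3, was over 2-fold lower, with a median log2 ratio of -0.12, beside a median of -0.0045 over all genes. The most abundant were the adaptors SHC1, at 15.5 RPKM in LM2 and 17.0 in MDA-MB-231, and GRB2, at 14.7 in LM2 and 13.9 in MDA-MB-231. IRS1, the docking protein that links IL4R to PI3 kinase, had a ratio of 1.06, and IRS2 had a ratio of 0.829. PIK3R1, a regulatory subunit of PI3 kinase, had 1356 counts in LM2 and 881 in MDA-MB-231, a ratio of 1.56 (1.43 to 1.70), the highest of these 11.

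Of 13 negative regulators, 12 were measured at that mean, 0 were over 2-fold higher and 1 was over 2-fold lower, with a median log2 ratio of -0.21. The lower one was PTPN6, a phosphatase best known from blood cells, with 44 counts in LM2 and 175 in MDA-MB-231. SOCS1, an inhibitor of Janus kinases that STAT proteins induce, had 126 counts in LM2 and 224 in MDA-MB-231, a ratio of 0.570 (0.454 to 0.712). CISH, another member of that family, was under the mean of 50 counts, with 8 in LM2 and 50 in MDA-MB-231. The most abundant were PTPN11, at 24.9 RPKM in LM2 and 22.3 in MDA-MB-231, and the ubiquitin ligase STUB1, at 21.2 in LM2 and 22.9 in MDA-MB-231.

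All 6 genes of the STAT6 cofactor list were measured, 0 were over 2-fold higher and 1 was over 2-fold lower, with a median log2 ratio of -0.14. NCOA1, a coactivator that binds STAT6, had 683 counts in LM2 and 1409 in MDA-MB-231, a ratio of 0.491 (0.448 to 0.539). SND1 was the most abundant, at 22.0 RPKM in LM2 and 26.7 in MDA-MB-231, and CARM1 followed with 5.12 in LM2 and 6.04 in MDA-MB-231. The other cofactors had ratios between 0.824 and 1.08.

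Known target genes of IL-4 and IL-13 mostly had few counts. Of 25 listed genes, 24 were paired with the table (MUC5AC was not), 7 reached a mean of 50 counts and 5 had 0 counts in both lines: CCL11, CCL17, ALOX15, POSTN and CLCA1. Of the 7, 1 was over 2-fold higher in LM2 and 4 were over 2-fold lower, beside 4.56% and 6.86% of all genes. Their median log2 ratio was -1.18, but -0.26 with a minimum mean of 10 counts and 0.0189 with no minimum. The counts of 1 and 4 rest on few genes, and no cytokine was given to the cells as far as the labels tell.

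The 4 lower targets were CST1, SPDEF, MAOA and TGM2. CST1, a secreted inhibitor of cysteine proteases, had 59 counts in LM2 and 8912 in MDA-MB-231. SPDEF, an epithelial transcription factor of mucus-making cells, had 375 in LM2 and 3255 in MDA-MB-231, a ratio of 0.117. MAOA, which breaks down monoamines, had 578 in LM2 and 3556 in MDA-MB-231, a ratio of 0.165. TGM2, a transglutaminase that cross-links proteins, had 5333 in LM2 and 12213 in MDA-MB-231, a ratio of 0.442 (0.428 to 0.457).

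SERPINB2, an inhibitor of plasminogen activators, went the other way. It had 1049 counts in LM2 and 48 in MDA-MB-231, a ratio of 22.1 (16.6 to 30.2). VCAM1, an adhesion molecule, had 494 counts in LM2 and 273 in MDA-MB-231 (ratio 1.83), and GATA3 had 95 in LM2 and 88 in MDA-MB-231. CCL26, a chemokine for eosinophils, was just under the mean of 50 counts, with 70 in LM2 and 29 in MDA-MB-231, a ratio of 2.45 (1.57 to 3.91). HSD3B1, a steroid-making enzyme that IL-4 and IL-13 induce, had 0 counts in LM2 and 32 in MDA-MB-231. The listed targets thus did not share a direction.

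**Figure D3:**
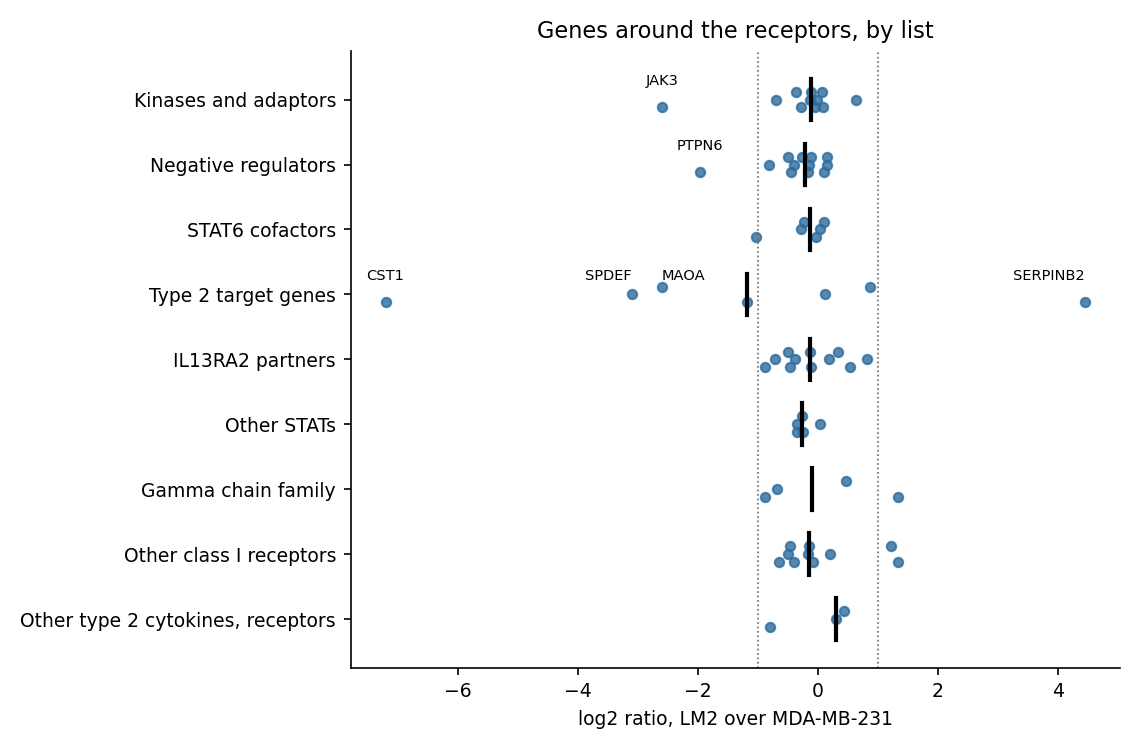
Log2 ratio of LM2 over MDA-MB-231, with 0.5 counts added, of the genes in 9 lists around the receptors that reach a mean of 50 counts. Circles are genes, the black bar marks the median of a list and dotted lines mark 2-fold. Most genes lie between the dotted lines, and the type 2 targets spread from -7.21 (CST1) to 4.45 (SERPINB2).

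Partners reported for IL13RA2 outside the classical pathway were also counted. Of 12 genes, 11 were measured and 0 were over 2-fold in either direction, with a median log2 ratio of -0.12. CHI3L1, a chitinase-like protein that binds IL13RA2, had 0 counts in both lines, and TMEM219, its co-receptor, had 1853 counts in LM2 and 1651 in MDA-MB-231, a ratio of 1.14 (1.06 to 1.22). TGFB1, a growth factor described downstream of IL13RA2, had 384 in LM2 and 712 in MDA-MB-231, a ratio of 0.546 (0.481 to 0.620). JUN, a subunit of the AP-1 transcription factor, had 15583 in LM2 and 8912 in MDA-MB-231, a ratio of 1.77 (1.73 to 1.82), the highest of the list. The most abundant were PLAU, at 39.2 RPKM in LM2 and 54.0 in MDA-MB-231, and FOSL1, another AP-1 subunit, at 37.1 in LM2 and 29.2 in MDA-MB-231.

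The other STAT genes had lower ratios than STAT6. Of 6, 5 were measured and 0 were over 2-fold in either direction, with a median log2 ratio of -0.26. STAT3, at 7.32 RPKM in LM2 and 8.76 in MDA-MB-231, had the highest LM2 level of the list and a ratio of 0.836 (0.804 to 0.869). STAT2 had a ratio of 1.02 (0.979 to 1.07). STAT6, at 1.47, was above each of the 5.

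Of 13 genes listed for the common gamma chain family and its relatives, 4 were measured and 7 had 0 counts in both lines. Among the 7 were the relatives TSLP and its receptor chain CRLF2. IL7, a lymphocyte growth factor, was the 1 gene over 2-fold higher, with 334 counts in LM2 and 134 in MDA-MB-231, a ratio of 2.53 (2.06 to 3.11), and 0 were over 2-fold lower. IL7R had 649 in LM2 and 1215 in MDA-MB-231, a ratio of 0.541, and IL15RA, at 2.26 RPKM in LM2 and 3.60 in MDA-MB-231, was the most abundant. IL21R, the gene directly after IL4R, was under the mean of 50 counts, with 40 in LM2 and 12 in MDA-MB-231, a ratio of 3.38 (1.74 to 7.07).

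Of 20 other class I cytokine receptors, 10 were measured, 2 were over 2-fold higher and 0 were over 2-fold lower, with a median log2 ratio of -0.15. IL12RB2 had 86 counts in LM2 and 34 in MDA-MB-231 (ratio 2.56, 1.70 to 3.93), and IL6R had 287 in LM2 and 124 in MDA-MB-231 (ratio 2.35, 1.89 to 2.92). IL6ST, the shared chain of the IL-6 family, was the most abundant, at 16.3 RPKM in LM2 and 22.5 in MDA-MB-231, followed by OSMR, at 3.95 in LM2 and 4.37 in MDA-MB-231. The highest ratio of the 10 was thus 2.56, beside 2162 for IL13RA2.

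Of 9 other cytokines and receptors of type 2 immunity, 3 were measured and 0 were over 2-fold in either direction. They were CSF2, with 418 counts in LM2 and 738 in MDA-MB-231, IL31RA, with 1054 in LM2 and 862 in MDA-MB-231, and IL17RB, with 255 in LM2 and 190 in MDA-MB-231. IL3, IL25, IL31 and IL33 had 0 counts in both lines, and IL5 had 0 in LM2 and 2 in MDA-MB-231. Over the 9 lists, 68 of 117 genes were measured, of which 4 (5.88%) were higher and 7 (10.3%) lower by more than 2-fold, beside 4.56% and 6.86% of all genes.

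The genes beside IL13RA2 on chromosome X were examined to see how far the difference extended. Within 1 Mb on either side lay 15 other listed genes, of which 9 had 0 counts in both lines and 3 reached a mean of 50 counts. HTR2C, a serotonin receptor gene 93.9 kb away, had 116 counts in LM2 and 0 in MDA-MB-231. The lower end of the exact interval of its ratio was 31.4-fold, and with MDA-MB-231 set to a floor of 3 counts the ratio was 39.2. Its LM2 level was 0.189 RPKM, beside 36.1 RPKM for IL13RA2. LRCH2, on the other side at 93.0 kb, had 1 count in LM2 and 17 in MDA-MB-231. PLS3, an actin-bundling protein gene 543.6 kb away, had 19814 counts in LM2 and 19978 in MDA-MB-231, a ratio of 1.005 (0.985 to 1.02), and DANT2 had 101 in LM2 and 115 in MDA-MB-231.

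Of the 20 nearest genes that reached a mean of 50 counts, 2 were over 2-fold higher, HTR2C and COL4A6 (137 counts in LM2, 67 in MDA-MB-231). None was over 2-fold lower, beside 4.56% of all genes higher and 6.86% lower, and the median log2 ratio was 0.05. HTR2C reached that mean through its LM2 counts alone, and LRCH2, lower in LM2, was left out because it was under the mean. IL13RA1 lies on the same chromosome and is itself the seventh of these genes after IL13RA2. All 20 nearest genes of IL13RA1, which include IL13RA2 and HTR2C, had a higher log2 ratio than IL13RA1 at -0.44, the lowest at -0.42, with a median of 0.28. DOCK11, directly before IL13RA1, had 1404 counts in LM2 and 1044 in MDA-MB-231 (ratio 1.36, 1.26 to 1.48), and ZCCHC12, directly after it, had 17 in LM2 and 11 in MDA-MB-231.

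STAT6 stood in a stretch of chromosome 12 in which all 20 nearest genes that reached a mean of 50 counts were higher in LM2. Some of the 20 overlap, as SNORD59A and SNORD59B lie inside ATP5F1B, so they are not 20 separate loci. The log2 ratios of the 20 ran from 0.23 to 2.28 with a median of 0.71, and 13 were above STAT6 at 0.56. Of all genes, 49.6% were above 0. The stretch spans 0.965 Mb. NAB2, which overlaps the end of STAT6, had 1557 counts in LM2 and 1235 in MDA-MB-231, and LRP1, a large endocytic receptor gene on the other side, had 3459 in LM2 and 1819 in MDA-MB-231. SHMT2, an enzyme of mitochondrial serine and folate metabolism, had 21310 in LM2 and 5978 in MDA-MB-231, and DDIT3, a stress-response transcription factor gene, had 3610 in LM2 and 1595 in MDA-MB-231. NXPH4 had the highest ratio, with 213 in LM2 and 44 in MDA-MB-231. Whether the neighbours and STAT6 share a cause of their higher ratios was not tested.

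The neighbours of IL4R were closer to all genes than those of STAT6, but most were also higher in LM2. Of its 20 nearest genes that reached a mean of 50 counts, 16 had a log2 ratio above 0, beside 49.6% of all genes. Their median was 0.25, beside -0.0045 over all genes and 0.30 for IL4R, and 15 were below IL4R. NUPR1, a stress-response gene, was the 1 gene over 2-fold higher, with 2997 counts in LM2 and 124 in MDA-MB-231. None was over 2-fold lower, beside 4.56% of all genes higher and 6.86% lower. NSMCE1, directly before IL4R, had 1012 counts in LM2 and 775 in MDA-MB-231, a ratio of 1.32 (1.20 to 1.45). The IL2RG neighbours had a median of 0.01.

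**Figure D4:**
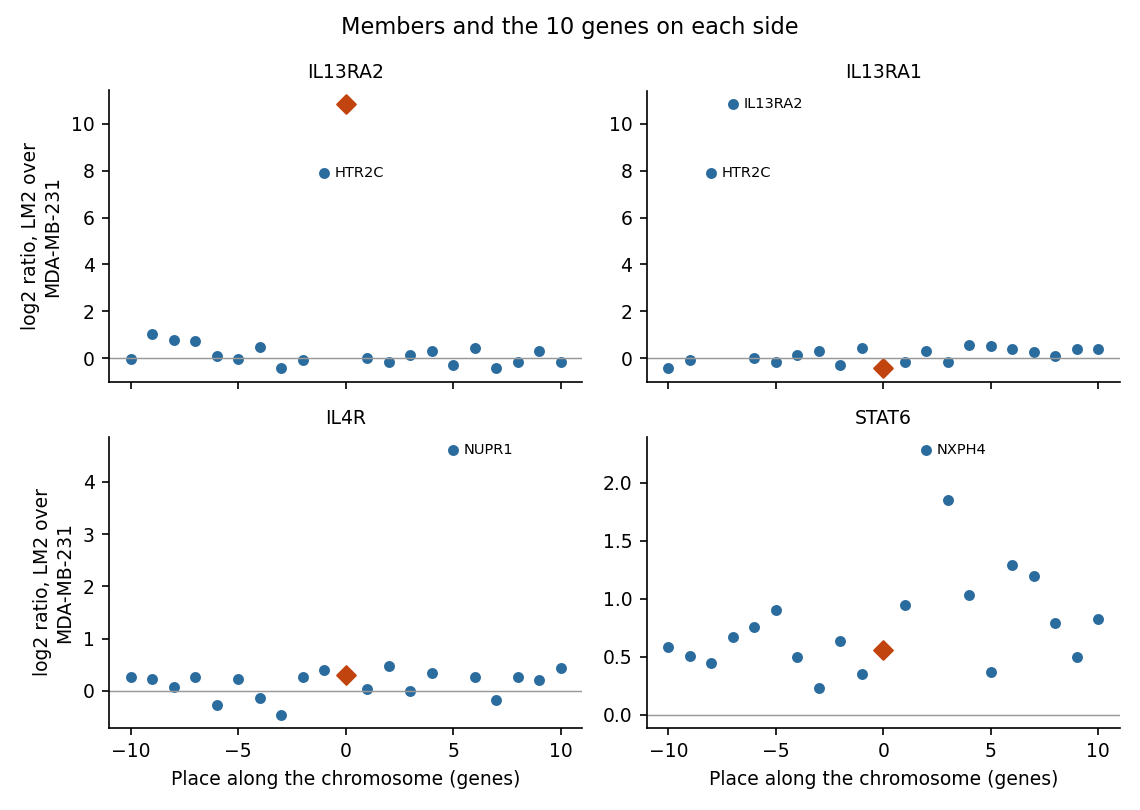
Log2 ratio of LM2 over MDA-MB-231, with 0.5 counts added, of IL13RA2, IL13RA1, IL4R and STAT6 (diamonds) and the 10 nearest genes on each side (circles) that reach a mean of 50 counts, by place along the chromosome. The vertical scales differ between panels. IL13RA2 stands above all 20 of its neighbours, and all 20 neighbours of STAT6 lie above 0.

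Few genes had the pattern of IL13RA2, with almost no counts in MDA-MB-231 and a high level in LM2. Of 15585 genes with at most 10 counts in MDA-MB-231, 34 were above 1 RPKM in LM2 and 6 had at least 1000 counts in LM2. Apart from IL13RA2, the 5 genes of highest LM2 RPKM in this group included AC148477.2, MIR5087, AC148477.3 and SPANXD. AC148477.2 had 1377 counts in LM2 and 4 in MDA-MB-231, and AC148477.3 had 1221 in LM2 and 1 in MDA-MB-231. SPANXD, a cancer-testis gene on chromosome X from a family of similar copies, had 243 in LM2 and 3 in MDA-MB-231. The microRNA locus MIR5087 had 58 in LM2 and 10 in MDA-MB-231, a ratio of only 5.88 (2.98 to 12.9). It is 76 bases long, which raises its RPKM, so its place rests on its length.

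By LM2 counts, the genes with this pattern also included PAPPA2, a protease that acts on insulin-like growth factor binding proteins, and CDH18, a cadherin. PAPPA2 had 2795 counts in LM2 and 5 in MDA-MB-231, and CDH18 had 1300 in LM2 and 2 in MDA-MB-231. Their LM2 levels, 3.13 and 3.26 RPKM, were below the 36.1 RPKM of IL13RA2. IL13RA2 therefore ranked 2 by LM2 level among the genes near 0 in MDA-MB-231.

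Promoter sequences of 6 of the 7 genes were matched in RefSeq (GRCh38.p14), each with 250 bases before and 50 bases after the start. IL13RA2 was the gene without a match, so the values below do not cover its promoter. The other detected chains, IL4R and IL13RA1, had GC-rich promoters (79.3% and 76.3%). STAT6 had 57.7%, beside a median of 58.3% over 27305 promoters. IL4 had 35.3% and IL2RG 50.3%, and the entries of IL13 had 76.3% and 50.3%. On either strand, TTC and GAA separated by 4 bases, the form that STAT6 prefers, were found in the IL4 promoter alone of the 6 (6.37% of all promoters). The STAT form with a shorter gap, TTCNNNGAA (7.88% of all promoters), was not found in these windows. The AP-1 motif TGACTCA (2.44%) was searched only on the strand as given and was not found there. Its reverse complement was not searched.

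Markers of the cell line were checked. VIM, a mesenchymal intermediate filament, was at 951 RPKM in LM2 and 550.0 in MDA-MB-231, and the surface marker CD44 had 14048 counts in LM2 and 17246 in MDA-MB-231. The oestrogen receptor ESR1 had 8 counts in LM2 and 2 in MDA-MB-231, the progesterone receptor PGR had 2 in LM2 and 7 in MDA-MB-231, and ERBB2 had 1922 in LM2 and 2966 in MDA-MB-231, or 3.22 RPKM in LM2 and 4.91 in MDA-MB-231. Of 12 immune cell markers, 6 had 0 counts in both lines, and the list summed to 0.672 RPKM in LM2 and 0.989 in MDA-MB-231, with PTPRC, the pan-leukocyte marker, at 7 counts in LM2 and 8 in MDA-MB-231. The immune marker of most counts was CD14, with 114 in LM2 and 199 in MDA-MB-231. Of 7 stromal and endothelial markers, COL1A1 had 532 counts in LM2 and 209 in MDA-MB-231, and PECAM1 had 343 in LM2 and 48 in MDA-MB-231. PDGFRB had 183 in LM2 and 525 in MDA-MB-231, LUM had 18 in LM2 and 76 in MDA-MB-231, and CDH5 had 0 in both. The stromal and endothelial list summed to 1.62 RPKM in LM2 and 1.34 in MDA-MB-231. The part of the immune, stromal and endothelial markers in the IL13RA2 difference was not tested.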

How the data were processed

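RNA from LM2 and MDA-MB-231 was sequenced by the authors. The labels name bcl2fastq, TopHat2 2.0.13 and the build hg19 (GRCh37). Neither the counting program nor strandedness or annotation is named in the sources used here. The deposited table gives raw counts per transcript, 1 column per cell line. The deposited RPKM values equalled count divided by length and column total, within a relative 4.98e-06.

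Symbols came from RefSeq GRCh38.p14 and GENCODE release 29, and 61795 of 65423 transcript identifiers had one. Coordinates are GRCh38, and none were converted. The ratio is the LM2 count over the MDA-MB-231 count, divided by the ratio of column totals, with the exact Clopper-Pearson 95% interval. RPKM has the exact Poisson interval. Reads are not known to be independent molecules. Lists used genes that reached a mean of 50 counts, with 0.5 counts added.

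The 7 genes and the lists were chosen with earlier results of these data known. From each list, up to 4 genes over 2-fold and the 2 of highest LM2 level are named, with the protein-coding genes directly beside each member. To these were added the 5 genes of highest LM2 RPKM, apart from IL13RA2, among those with at most 10 counts in MDA-MB-231. Some genes that this rule names are not reported here. Further genes are named for their role or place and were chosen after their values were seen. TMM and upper-quartile factors (edgeR 4.0.16) and DESeq2 1.42.0 size factors were used as alternative scalings only. Other tools were Python 3.11.15, scipy 1.17.1, pandas 2.3.3 and R 4.3.3.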

Additional observations from a re-analysis of the deposited data

How the results depend on the processing

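Of 202 alternative values over 35 results, 177 kept their direction and stayed within counting error (genes of the axis), 1.5 times (counts of genes) or 0.1 on the log2 scale (list medians), 21 moved and 4 changed sign. No paired analysis was possible because the tables hold 1 column per cell line with no replicate numbers, and for the same reason no replicate could be left out. For the genes of the axis, 42 of 46 alternative values stayed within counting error, which is wide for IL2RG (log2 ratio -2.15, but -0.40 as log2(RPKM + 0.1) and -0.05 as log2(RPKM + 1)). TMM, upper-quartile and DESeq2 scaling kept the direction of IL13RA2, IL13RA1, IL4R, STAT6 and IL2RG. The choice of transcript kept the direction of IL4R and STAT6. IL13RA2, IL13RA1 and IL2RG have 1 transcript each, so for them this choice repeats the main value and is no check. These repeats are among the 46 and the 202 values. The IL13RA2 log2 ratio of 11.08 became 8.28 as log2(RPKM + 0.1) and 5.19 as log2(RPKM + 1), by the construction of these scales. The 12 transcripts of most counts held 27.4% of counts in LM2 and 30.7% in MDA-MB-231. Totals without them, a choice made after the data were seen, gave log2 ratios of -0.51 for IL13RA1 and 0.49 for STAT6.

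With a minimum mean of 10 counts, 1299 genes were higher and 1847 lower by over 2-fold, and with no minimum 3868 and 4332, against 704 and 1058 at 50 counts. List medians depended on the minimum too. Without one, genes at 0 in both lines enter at a log2 ratio of 0.0189. This value became the median of the type 2 targets (-0.26 at 10 counts) and of the common gamma chain family (0.47 at 10 counts, -0.10 at 50). It also became the median of the other class I receptors and of the other type 2 cytokines and receptors (0.31 at 50 counts). The type 2 targets then had 5 genes over 2-fold higher and 8 lower. Low counts limit IL4, IL13, IL2RG and the MDA-MB-231 value of IL13RA2.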
